A study of Mus musculus with 6 samples.

Results

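The genes described here are 39 interferon-induced genes of the mouse outside the guanylate-binding protein family, chosen by name from a list of such genes. The choice was made with earlier results of these data known. Shares of members set beside shares of all tested genes are therefore descriptive. All 39 stood among the 23366 gene rows of the count table, and 36 passed the filter on low counts that left 10897 genes for testing. Ifit3, Oasl1 and Ifi44 did not pass it. RNA was sequenced from 6 libraries of CD4+ effector T cells that had been transferred into Rag-deficient mice and taken back from their mesenteric lymph nodes after 6 weeks. The cells were sorted by their content of rhodamine 123 (Rh123), a fluorescent substrate exported by the transporter Mdr1. Mdr1+ cells are the Rh123-low fraction and Mdr1- cells the Rh123-high fraction, with 3 libraries each. The groups are therefore sort gates within 1 transferred population and carry no engineered difference from each other. The labels give FVB/N as the strain background and the same tissue for every library. Rag-deficient hosts lack T and B cells of their own and keep their myeloid, NK and stromal cells. The labels do not say whether replicates came from separate mice, and p-values cover the spread among these libraries only, which may be technical.

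Interferons are cytokines that put cells into an antiviral state. Type I interferons act through the receptor chains IFNAR1 and IFNAR2 and lead to factor binding at the interferon-stimulated response element (ISRE). Interferon gamma, made by T cells and NK cells, acts through IFNGR1 and IFNGR2 and leads to factor binding at the gamma-activated site (GAS). Many of the genes below answer to both kinds. The comparison of Mdr1+ with Mdr1- cells asks how the 2 fractions differ in this response.

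Libraries held 2220691 to 20771456 counts in genes. The Mdr1+ library of replicate 3 was the shallowest, and the first principal component (59.2% of the variance of log2 levels) separated it from the rest. Counts of replicate 3 were deposited in another row order than the gene names and were re-ordered before use; all results with replicate 3 rest on that step. Abcb1a, the main Mdr1 gene of mouse T cells, was at 132 to 178 CPM in Mdr1+ and at 42.0 to 73.4 CPM in Mdr1- libraries. CPM are counts scaled to library size, here after the trimmed mean of M-values (TMM). Mki67, which marks proliferating cells, was at 178 to 241 CPM in Mdr1+ and at 851 to 1488 CPM in Mdr1- libraries, and the part of this difference in the results was not tested. The 10 T cell markers checked cell identity, not the Rh123 gates, with summed levels of 5498 to 6795 CPM in Mdr1+ and 5383 to 6102 CPM in Mdr1- libraries. The 5 plasmacytoid dendritic cell markers summed to 1.64 to 9.90 CPM in Mdr1+ and 3.35 to 6.79 CPM in Mdr1- libraries. Nearly all of this was Tcf4, which was highest in the Mdr1+ library of replicate 3. Klk1 and Cox6a2 had 0 counts in all 6 libraries, Siglech had counts in the Mdr1- library of replicate 3 alone, and Ly6d in the Mdr1- libraries of replicates 1 and 2. The summed level of the 10 measured macrophage, monocyte and neutrophil markers was 103 CPM in the Mdr1- library of replicate 3 and 10.4 to 24.5 CPM in the other 5. Most of it in those 5 was Cd68, with ratios of Mdr1+ to Mdr1- of 1.09, 1.31 and 1.02. Lyz2 had ratios of 0.198, 0.324 and 0.0969 and fell with the replicate number as a block (adjusted p = 0.0461). Csf1r and Itgam, too low to test, were below 0.5 CPM in each Mdr1+ library. In Mdr1- libraries they were at 0.223 to 5.09 and 0.865 to 2.21 CPM. The 9 conventional dendritic cell markers summed to 24.6 to 53.3 CPM in Mdr1+ and 64.0 to 93.4 CPM in Mdr1- libraries, and Cd74 and H2-Aa fell in Mdr1+ cells with the replicate number as a block (adjusted p = 0.00432 and 0.0192). The 6 markers of stroma and endothelium, most of their level being Pecam1, summed to 117 to 191 CPM in Mdr1+ and 125 to 136 CPM in Mdr1- libraries. Among them Acta2, the smooth muscle actin gene, fell also without the block, at 0, 0.280 and 0 CPM in Mdr1+ and 4.35, 6.40 and 4.08 CPM in Mdr1- libraries (adjusted p = 0.018). Cdh5, an endothelial cadherin gene, was below 0.5 CPM in each Mdr1+ library and at 1.79 to 2.42 CPM in Mdr1- libraries (adjusted p = 0.116). The 4 NK cell markers summed to 30.9 to 57.7 CPM in Mdr1+ and 20.1 to 32.4 CPM in Mdr1- libraries, and the 6 B cell markers to 10.97 to 22.8 CPM in Mdr1+ and 6.36 to 10.8 CPM in Mdr1- libraries. The part of these in the results was not tested. In bulk samples fewer cells of a type and less RNA per cell cannot be told apart.

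Promoter sequence was at hand in RefSeq (build GRCm38.p6, the C57BL/6J genome) for 27 of the 39 genes. The 250 bases before the start were searched on both strands for the core of an ISRE, GAAA and GAAA with 2 bases of any kind between them, and for the core of a GAS, TTC and GAA with 3 bases of any kind between them. Matches may overlap each other. Where a gene had several starts, a match before any of them counted, for members and for all genes alike. An ISRE match lay in 10 of 27 member promoters (37.0%), against 3.46% of 27025 genes with a promoter entry. A GAS match lay in 7 (25.9%), against 8.13% of those genes. Bst2, Igtp, Irgm2 and Oas1a held both. The GAS matches of Isg20, which had 3 starts, and of Ifit2, which had 2, lay before 1 start each. The 120 bases before the start are shown for 3 GTPase genes and for Isg15 and Ifit1, because the layout of their matches differs. Capitals mark the matched letters. The stretches lie at chr11:58199436-58199555 (Igtp, + strand), chr11:58214857-58214976 (Irgm2, + strand), chr11:48871421-48871540 (Irgm1, - strand), chr4:156200819-156200938 (Isg15, - strand) and chr19:34640769-34640888 (Ifit1, + strand).
Igtp: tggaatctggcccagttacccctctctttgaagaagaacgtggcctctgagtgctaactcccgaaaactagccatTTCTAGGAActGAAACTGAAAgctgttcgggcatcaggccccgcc
Irgm2: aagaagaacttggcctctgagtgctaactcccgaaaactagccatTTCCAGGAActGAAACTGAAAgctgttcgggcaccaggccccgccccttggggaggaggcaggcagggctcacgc
Irgm1: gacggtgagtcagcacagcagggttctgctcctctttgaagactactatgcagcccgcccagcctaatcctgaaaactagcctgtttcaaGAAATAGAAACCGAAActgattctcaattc
Isg15: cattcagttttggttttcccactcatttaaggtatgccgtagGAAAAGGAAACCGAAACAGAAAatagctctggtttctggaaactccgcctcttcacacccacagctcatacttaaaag
Ifit1: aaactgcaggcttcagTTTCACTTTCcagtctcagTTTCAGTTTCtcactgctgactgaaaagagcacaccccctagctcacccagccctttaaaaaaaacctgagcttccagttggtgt
Igtp and Irgm2 are next to each other on chromosome 11 in that assembly. With their stretches shifted by 30 bases, 87 of 90 aligned bases were identical, and each held a GAS match just upstream of an ISRE match. Isg15 held 3 overlapping ISRE matches in 1 run, Ifit1 held 2 separate ones, and neither held a GAS match. A match is a description of letters, not a binding site.

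No member rose or fell in Mdr1+ cells in edgeR's quasi-likelihood test with group as the only term. The count was 0 of 36, while 0.275% of all 10897 tested genes were higher and 1.95% lower. At an unadjusted p under 0.05, 6 members (16.7%) were higher and 0 lower, against 4.63% of all genes higher and 7.22% lower. DESeq2 called 0 of 39, beside 0.86% of all genes called higher and 3.18% lower. The values nevertheless lay mostly on the Mdr1+ side. The fitted log2 fold change of Mdr1+ over Mdr1- was above 0 for 33 of 36 members (91.7%), against 54.2% of all tested genes. With size factors of the DESeq2 type it was above 0 for 31, because Tap1 and Trim25, which were at 0.01 and 0.00, changed sign. The median was 0.32, against 0.04 over all tested genes. The library with the highest level was an Mdr1+ library for 35 of 36 members (97.2%), against 60.4% of all tested genes, the exception being Oas1a. In 10 members (27.8%) all 3 Mdr1+ libraries lay above all 3 Mdr1- libraries, against 8.71% of all tested genes, and in 0 members did they all lie below, against 11% of all tested genes. An exact permutation test on 3 against 3 libraries cannot go below p = 0.1.

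With the replicate number as a block, 7 of 36 members rose (19.4%) and 0 fell, against 5.81% of all tested genes that rose and 6.57% that fell. The 7 were Rtp4, Samd9l, Ifih1, Ifi35, Iigp1, Nlrc5 and Igtp, with folds of 1.25 to 2.44. The count depended on which replicate was in the fit. Without replicate 3, 15 of 37 members rose with the block (40.5%), against 10.1% of all genes in that fit. Without replicate 1, 3 of 37 rose (8.11%), against 3.93%, and without replicate 2 only Samd9l did (2.7%), against 2.42%. Samd9l was the 1 member that rose in all 4 fits with the block, and Nlrc5 missed only the one without replicate 2.

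**Figure D1:**
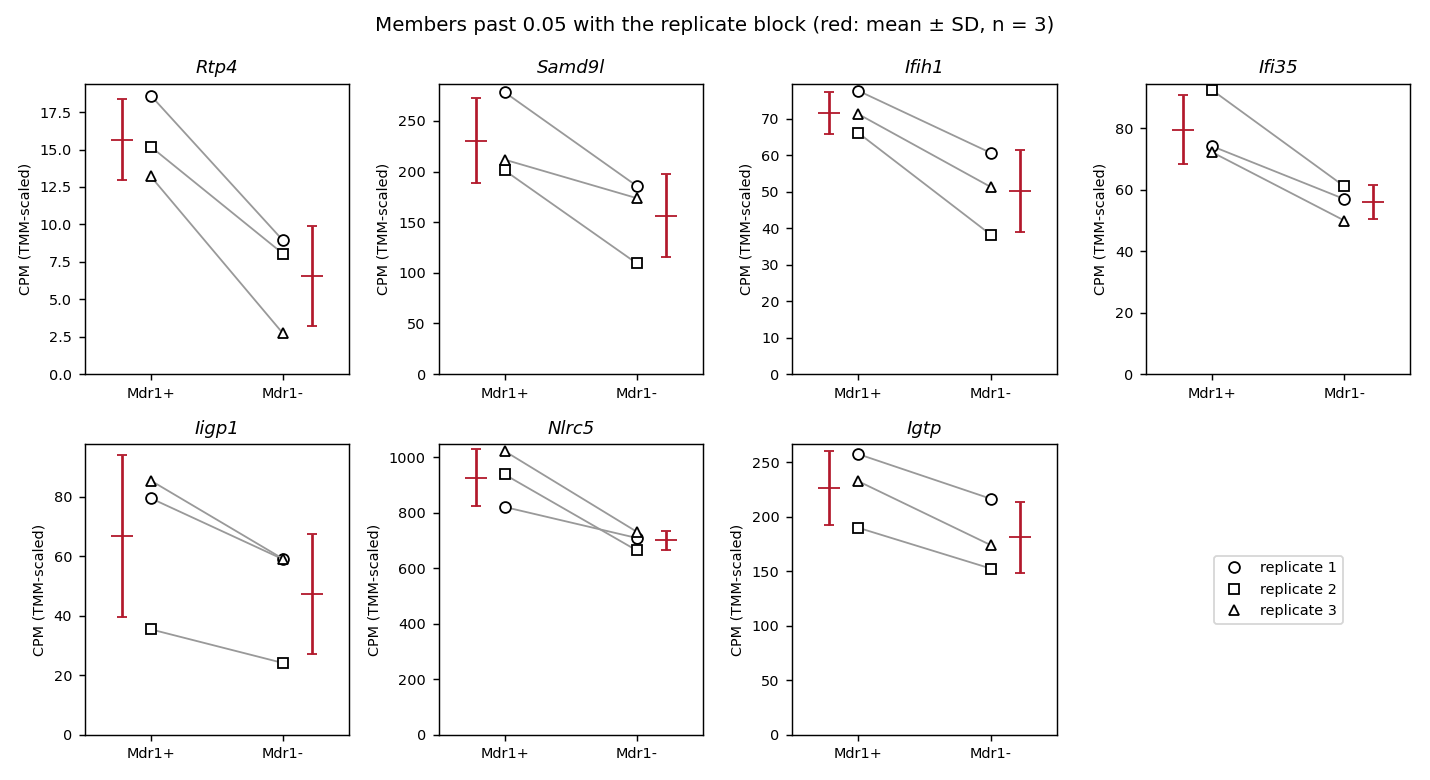
Levels in TMM-scaled CPM (y axis, starting at 0) of the 7 members that passed 0.05 with the replicate block, in Mdr1+ and Mdr1- libraries. Each symbol is 1 library, a grey line connects equal replicate numbers, and red marks give the mean ± SD (n = 3). For all 7 genes each line falls towards Mdr1-, while the groups overlap for Iigp1 and Igtp.

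Members given below with the value of every library are those that passed 0.05 in either fit and, in each group of related roles, those with the highest and the lowest fitted fold change. Any other member named with values was chosen after its values were seen. The role groups are small and were not compared with each other.

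Isg15 encodes a ubiquitin-like protein that is attached to other proteins, and Usp18 the protease that removes it and also blocks the IFNAR2 chain. Isg15 was at 10.8, 7.06 and 7.07 CPM in Mdr1+ libraries of replicates 1, 2 and 3, against 7.37, 4.76 and 6.28 CPM in Mdr1- libraries. The groups overlap, although the Mdr1+ library was higher within each number (log2 fold change 0.45 ± 0.37, adjusted p = 0.71 and, with the block, 0.399). Usp18 was at 11.6, 8.74 and 0 CPM in Mdr1+ libraries, against 5.69, 5.45 and 5.43 CPM in Mdr1- libraries. The Mdr1- libraries were nearly level, and the Mdr1+ libraries spanned both sides of them. The 0 counts of Usp18 in the Mdr1+ library of replicate 3 allow up to 1.42 CPM at that depth, counting error only. Its fitted log2 fold change was 0.41 ± 0.74 (adjusted p = 0.885, and 0.875 with the block).

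The effectors that recognise foreign RNA or act on it showed 0 calls among 10 tested members in either fit, with a median log2 fold change of 0.26. IFIT proteins bind the ends of viral RNA, OAS enzymes make the second messenger that activates RNase L, the kinase encoded by Eif2ak2 halts translation, Adar edits adenosines, Isg20 is an exonuclease and Zbp1 senses Z-form nucleic acid. Ifit1 had the highest value, at 17.8, 14.4 and 4.24 CPM in Mdr1+ libraries, against 7.26, 5.19 and 7.81 CPM in Mdr1- libraries. Its replicates 1 and 2 were 2.45 and 2.78 times higher in Mdr1+ and its replicate 3 was lower, at a ratio of 0.543 that rests on 9 counts. The fitted value was 0.91 ± 0.47 (adjusted p = 0.495, and 0.225 with the block), and Ifit1 rose with the block when replicate 3 was left out. Eif2ak2 had the lowest value, at 16.0, 17.5 and 31.1 CPM in Mdr1+ libraries, against 18.9, 20.2 and 29.9 CPM in Mdr1- libraries (-0.13 ± 0.32, adjusted p = 0.917). Its level was highest in replicate 3 in both groups, and the test between replicate numbers in the fit with the block did not pass (adjusted p = 0.0668). In Isg20 and Ifit2 the Mdr1+ libraries all lay above the Mdr1- libraries, with log2 fold changes of 0.67 ± 0.31 and 0.58 ± 0.25 that did not pass (adjusted p = 0.445 and 0.388). Oas3, by contrast, was at 70.4 to 83.5 CPM in Mdr1+ and 71.3 to 79.6 CPM in Mdr1- libraries, a log2 fold change of 0.03 ± 0.16. Oas1a has close relatives beside it in the genome, so its reads may be split among copies.

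Among the RNA sensors, 1 of 4 rose with the block, beside 5.81% of all tested genes. Ifih1, which encodes MDA5, a sensor of long double-stranded RNA, was at 77.6, 66.0 and 71.2 CPM in Mdr1+ libraries, against 60.6, 38.2 and 51.3 CPM in Mdr1- libraries. All Mdr1+ libraries lay above all Mdr1- libraries. Its log2 fold change was 0.52 ± 0.21 without the block (adjusted p = 0.357) and 0.55 ± 0.13 with it (adjusted p = 0.0308). Trim25, a ubiquitin ligase that acts with RIG-I, was at 48.2, 69.2 and 69.3 CPM in Mdr1+ libraries, against 52.5, 68.1 and 65.5 CPM in Mdr1- libraries. Its difference was 0.00 ± 0.21 and the groups overlap fully. Ddx58, which encodes RIG-I, a sensor of RNA with a free triphosphate end, had ratios of 1.32 and 1.70 in replicates 1 and 2 and of 0.87 in replicate 3 (adjusted p = 0.563, and 0.182 with the block). Dhx58, which encodes LGP2, a regulator of the other sensors, had the same order of ratios, at 1.18, 1.27 and 0.605.

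The 7 GTPase genes all had fitted values above 0, against 54.2% of all tested genes. With the block 2 of them rose, beside 5.81% of all tested genes. Mx proteins are dynamin-like antiviral GTPases, and immunity-related GTPases, induced mainly by interferon gamma, act on the vacuoles of intracellular parasites and bacteria. In the C57BL/6J assembly at hand Mx1 and Mx2 are annotated as transcribed pseudogenes. Iigp1, an effector of the immunity-related family, was at 79.4, 35.4 and 85.4 CPM in Mdr1+ libraries, against 58.9, 24.1 and 59.1 CPM in Mdr1- libraries. The groups overlap, because both libraries of replicate 2 were low, but the ratio within each number was 1.35, 1.47 and 1.44. The fitted value was 0.48 ± 0.41 without the block (adjusted p = 0.723) and 0.50 ± 0.12 with it (adjusted p = 0.03). Igtp, one of the regulatory members of the family, was at 257, 190 and 232 CPM in Mdr1+ libraries, against 217, 153 and 174 CPM in Mdr1- libraries. Its ratios of 1.19, 1.24 and 1.34 were the narrowest range among the 7 members that rose with the block except that of Iigp1 (log2 fold change 0.32 ± 0.09 with the block, adjusted p = 0.0391, against 0.592 without). Irgm1, another regulatory member, was at 114, 111 and 113 CPM in Mdr1+ libraries, against 104, 84.2 and 91.9 CPM in Mdr1- libraries. Its groups did not overlap, and its value of 0.27 ± 0.16 passed neither fit (adjusted p = 0.57, and 0.12 with the block). Irgm2, the neighbour of Igtp, had ratios of 1.22, 1.31 and 1.19 (adjusted p = 0.102 with the block).

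Of 7 tested membrane and other antiviral effectors 3 rose with the block, beside 5.81% of all tested genes. Rtp4, which encodes a receptor chaperone that is strongly induced by type I interferon, was at 18.6, 15.2 and 13.2 CPM in Mdr1+ libraries, against 8.93, 8.04 and 2.72 CPM in Mdr1- libraries. It had the highest fitted value of all 36 members, and the groups did not overlap (log2 fold change 1.24 ± 0.43, adjusted p = 0.263, and 1.29 ± 0.32 with the block, adjusted p = 0.0317). The value of the Mdr1- library of replicate 3 rests on 16 counts. Samd9l, an inhibitor of translation and growth, was at 278, 201 and 212 CPM in Mdr1+ libraries, against 186, 109 and 174 CPM in Mdr1- libraries. The lowest Mdr1+ library lay above the highest Mdr1- library, and the fitted value was 0.56 ± 0.24 (adjusted p = 0.382) and 0.59 ± 0.12 with the block (adjusted p = 0.0122). Ifi35, a leucine zipper protein gene induced by both kinds of interferon, was at 74.1, 92.4 and 72.2 CPM in Mdr1+ libraries, against 56.9, 61.0 and 49.9 CPM in Mdr1- libraries. It too showed no overlap (0.51 ± 0.18, adjusted p = 0.278, and 0.0252 with the block). Ifitm3, a membrane protein gene that hinders the entry of viruses, was at 9.47, 10.6 and 21.2 CPM in Mdr1+ libraries, against 11.8, 11.8 and 17.3 CPM in Mdr1- libraries (-0.04 ± 0.37, adjusted p = 0.979). Both libraries of replicate 3 were the highest of their group. Rsad2, which encodes viperin, and Bst2, which encodes tetherin, had ratios of 1.29 and 1.16 in replicate 1, of 2.16 and 1.36 in replicate 2 and of 0.427 and 0.529 in replicate 3.

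The 3 genes of class I antigen presentation differed among themselves. Nlrc5, the transactivator of class I genes, was at 820, 937 and 1021 CPM in Mdr1+ libraries, against 709, 664 and 731 CPM in Mdr1- libraries. The groups did not overlap (0.40 ± 0.17, adjusted p = 0.376, and 0.40 ± 0.09 with the block, adjusted p = 0.0189). Tap1, a subunit of the peptide transporter that class I loading needs, was at 359, 508 and 445 CPM in Mdr1+ libraries, against 443, 489 and 374 CPM in Mdr1- libraries. Its difference was 0.01 ± 0.19 without the block and 0.00 with it, and the order of the groups changed between replicates. Tap2, the other subunit, had a fitted value of 0.14 ± 0.25 (adjusted p = 0.877).

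Parp9, Dtx3l and Parp14 stand in a row on chromosome 16 in the same assembly. The first pair encode an ADP-ribosyltransferase and the ubiquitin ligase that forms a complex with it, and the third an ADP-ribosyltransferase of the same family. Parp9 was at 118, 123 and 146 CPM in Mdr1+ libraries, against 112, 97.9 and 116 CPM in Mdr1- libraries. There was no overlap, and the value of 0.25 ± 0.16 did not pass (adjusted p = 0.632, and 0.148 with the block). Dtx3l was at 142, 191 and 159 CPM in Mdr1+ libraries, against 145, 139 and 153 CPM in Mdr1- libraries (0.17 ± 0.17, adjusted p = 0.754). Only its replicate 2 stood out, at a ratio of 1.38. Over the 29 members that did not pass in either fit, fitted log2 fold changes ran between -0.13 for Eif2ak2 and 0.91 for Ifit1.

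**Figure D2:**
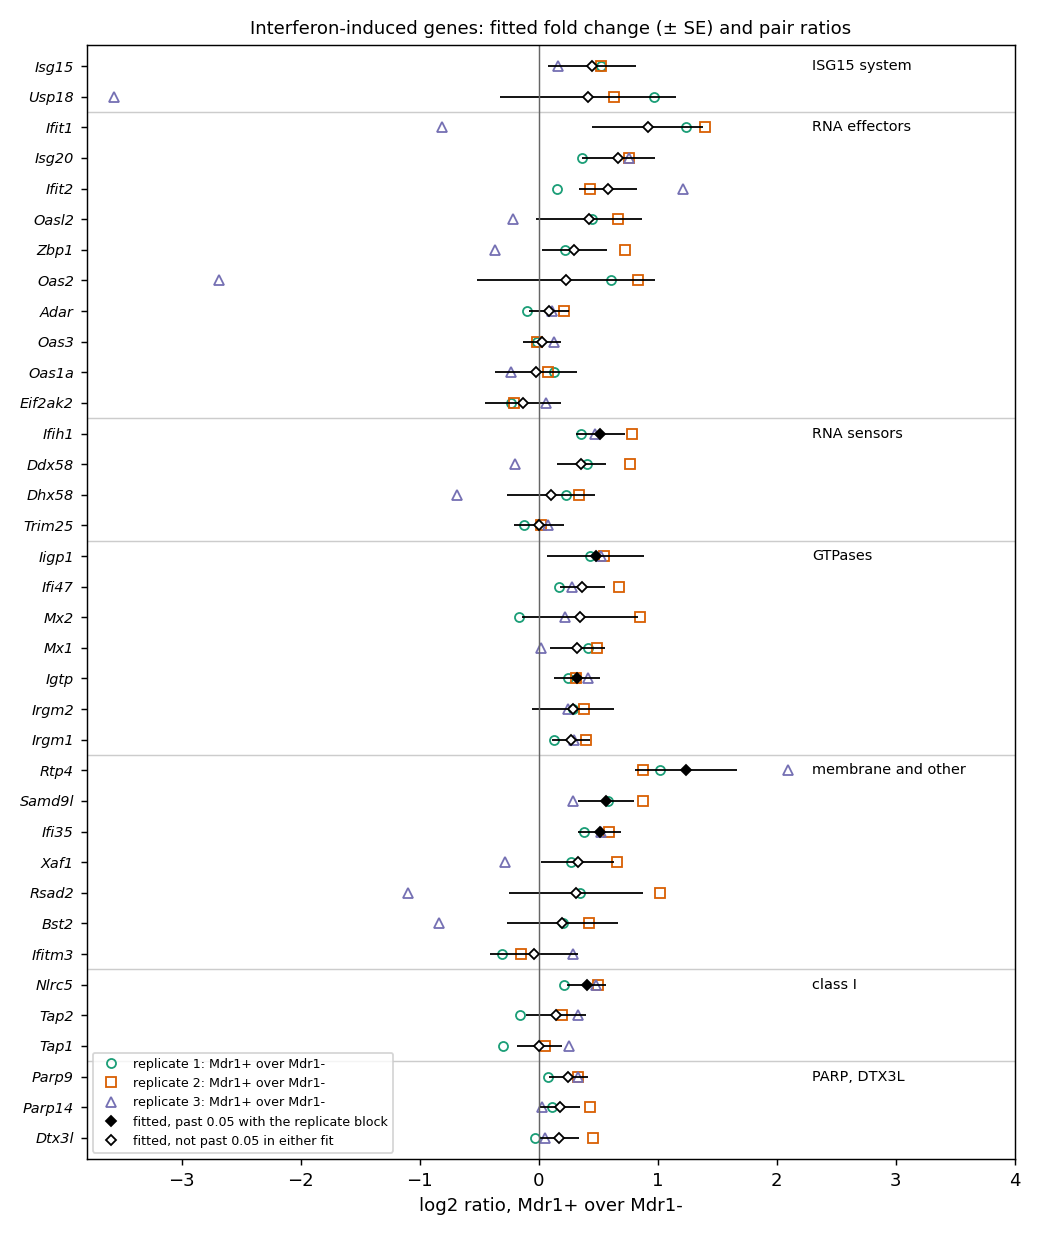
The 36 tested members (y axis, grouped by role) by their log2 ratio, Mdr1+ to Mdr1- (x axis). Open coloured symbols stand for the 3 replicate numbers, on log2(CPM + 0.5), and diamonds are the fitted log2 fold change ± SE without the block, filled where the fit with the block passed 0.05; most diamonds lie right of 0, and the symbol furthest left is replicate 3 of Usp18 at -3.57.

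Within replicates 1, 2 and 3 the median log2 ratio of the 36 members was 0.23, 0.49 and 0.14, on log2(CPM + 0.5), against 0.00, 0.09 and -0.02 over all tested genes. Members lay above 0 in 27, 33 and 25 cases, against 49.5%, 59.4% and 48.9% of all genes. In 16 members (44.4%) the Mdr1+ library was the higher one in all 3 pairs, against 28.2% of all tested genes, and in 0 members was it the lower one in all 3, against 24.6% of all tested genes. In 11 members (30.6%) Mdr1+ was higher in replicates 1 and 2 and lower in replicate 3, against 13.9% of all tested genes. They were Ifit1, Oas1a, Oas2, Oasl2, Usp18, Rsad2, Bst2, Zbp1, Ddx58, Dhx58 and Xaf1. Of these 8 had their lowest level of all in the Mdr1+ library of replicate 3, a share of 22.2% of members against 28.6% of all tested genes. Several of them rest on few counts in that library, with 0 for Usp18 and Oas2, 6 for Rsad2, 8 for Bst2 and 9 for Ifit1. Replicate 3 is the pair with the lower depth in both groups. Its Mdr1+ library also stood apart on the first principal component. Its Mdr1- library had the highest summed level of macrophage, monocyte and neutrophil markers, at 103 CPM. The part of each of these in the values was not tested.

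**Figure D3:**
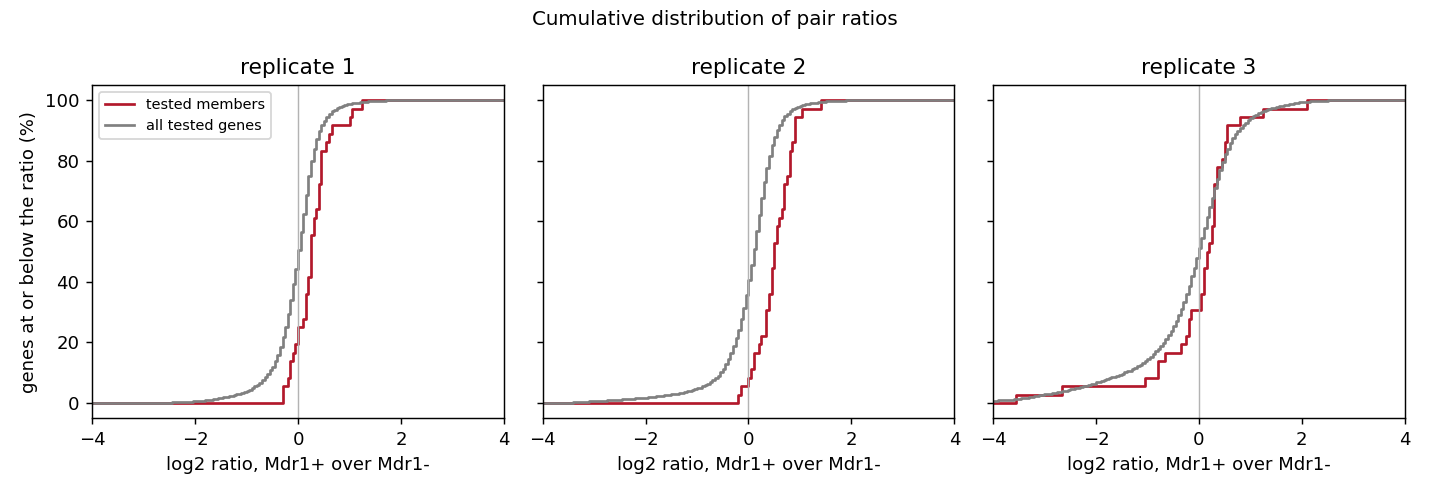
Cumulative share of genes (y axis, percent) at or below a given log2 ratio, Mdr1+ to Mdr1- (x axis), for each replicate number, with the tested members in red and all tested genes in grey. At -0.05 in replicate 2 the members' curve is at 5.56% and that of all genes at 35.73%; in replicate 3 the curves lie closer together at both ends.

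Levels were also compared between replicate numbers. In the fit with the block, 5 of 36 members (13.9%) differed between numbers, against 17.0% of all tested genes, and all 5 were chosen after their values were seen or had risen above. Iigp1 averaged 69.2, 29.8 and 72.2 CPM over both libraries of replicates 1, 2 and 3 (adjusted p = 0.00143). Irgm2 was likewise lowest in replicate 2, at 101, 47.3 and 89.0 CPM (adjusted p = 0.00191). Igtp (adjusted p = 0.0314) and Samd9l (adjusted p = 0.0404) were also lowest in replicate 2. Tap2 was highest in replicate 2, at 249, 399 and 290 CPM (adjusted p = 0.0147). What the numbers stand for is not given in the labels.

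**Figure D4:**
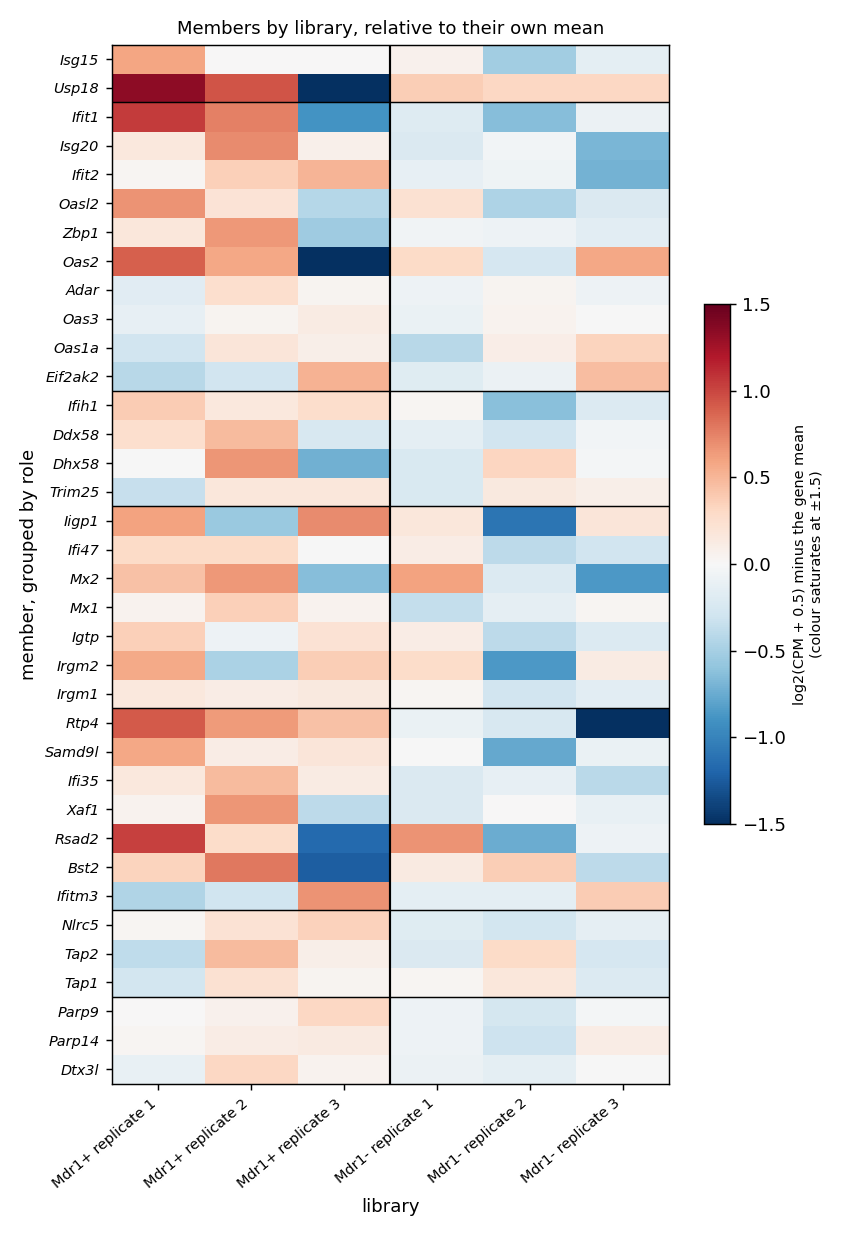
Level of each tested member (rows, grouped by role) in each library (columns, Mdr1+ left and Mdr1- right of the line), as log2(CPM + 0.5) minus the mean of that gene over the 6 libraries. Red is above and blue below the mean; Mdr1- replicate 2 is blue for most GTPase genes, and Mdr1+ replicate 3 is deep blue for Usp18 and Oas2, which had 0 counts there.

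Of the 3 members too low to test, Ifi44 and Oasl1 were highest in 1 Mdr1- library. Ifi44, an antiviral gene of uncertain mechanism, had 3, 5 and 10 counts in Mdr1+ libraries and 4, 3 and 44 counts in Mdr1- libraries, which is 7.47 CPM in the Mdr1- library of replicate 3, 4.72 CPM in the Mdr1+ library of that number and 0.234 to 0.498 CPM in the other 4. Oasl1, an OAS-like gene known in the mouse to restrain translation of Irf7, had 3, 24 and 1 counts in Mdr1+ libraries and 2, 2 and 32 counts in Mdr1- libraries, with its highest level of 5.43 CPM in the Mdr1- library of replicate 3. That Mdr1- library also held the myeloid markers given above, Il1b at 36.7 and Cd14 at 23.6 CPM among them, and their part in these values was not tested. Ifit3, which has a close copy that may share its reads, had 14, 41 and 0 counts in Mdr1+ libraries and 11, 8 and 3 counts in Mdr1- libraries. Its order among libraries was that of Ifit1 in replicates 1 and 2, where Mdr1+ was higher.

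Other genes of the pathway were read from a list of 103, of which 79 were tested. Without the block 1 rose and 0 fell, and with it 15 rose and 2 fell, that is beside 5.81% and 6.57% of all tested genes. The 10 interferon genes on the list, except Ifng, had almost no counts. Ifnb1, Ifna1, Ifna2, Ifna4, Ifna5, Ifnl2 and Ifnl3 had 0 counts in all 6 libraries, where 3 counts would be 0.140 to 1.42 CPM. Reads without a unique position were not assigned to genes, so reads of genes with close copies may be missing here. Ifng was at 355, 208 and 181 CPM in Mdr1+ libraries, against 291, 144 and 230 CPM in Mdr1- libraries, and passed neither fit (adjusted p = 0.891, and 0.466 with the block).

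Among 8 tested receptor chains and kinases 3 rose with the block, beside 5.81% of all tested genes. Ifngr1, the ligand-binding chain of the interferon gamma receptor, was at 1270, 707 and 1031 CPM in Mdr1+ libraries, against 706, 408 and 636 CPM in Mdr1- libraries. Each Mdr1+ library was well above the Mdr1- library of its number, and the groups met at 707 and 706 CPM (0.78 ± 0.27, adjusted p = 0.274, and 0.78 ± 0.08 with the block, adjusted p = 0.000461). Il10rb, a chain that the interferon lambda receptor shares with the interleukin 10 receptor, and Jak1, a kinase of all these receptors, rose with the block by 0.70 ± 0.16 and 0.30 ± 0.07 (adjusted p = 0.0245 and 0.0302). Ifnar1 and Ifnar2 did not pass in either fit.

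Of 9 transcription factors of the response, Irf7 alone rose in the fit without the block, beside 0.275% of all tested genes. This amplifier of type I interferon genes was at 147, 181 and 173 CPM in Mdr1+ libraries, against 93.9, 89.5 and 80.8 CPM in Mdr1- libraries (0.92 ± 0.16, adjusted p = 0.0219). In the fits without the block that left out a library or a replicate number, its value was 0.81 to 0.99 and it was called in 1 of 9, the one without Mdr1+ replicate 1 (adjusted p = 0.0415 to 0.306). With the block Irf7 rose too (adjusted p = 0.00149). It also rose in the block fits without replicates 1, 2 and 3 (adjusted p = 7.06e-06, 0.000264 and 0.00153) and in DESeq2 (adjusted p = 7.66e-05). Irf1 and Irf9 rose with the block, by 0.42 ± 0.09 and 0.40 ± 0.10 (adjusted p = 0.0146 and 0.029), while Stat2 did not pass (adjusted p = 0.998 with the block). Socs3, a feedback inhibitor of JAK kinases, was the 1 of 6 brakes that rose with the block (0.73 ± 0.10, adjusted p = 0.0021). None of 7 adaptors and receptors of nucleic acid sensing passed in either fit of edgeR. Of 48 other interferon-induced genes 8 rose and 2 fell with the block, beside 5.81% and 6.57% of all tested genes. Those that rose were Parp12, Ms4a4b, Slfn8, Sp110, Uba7, Cd274, Stat3 and H2-K1, with log2 fold changes of 0.31 to 0.85. The genes that fell were Ifi27l2a (-0.78 ± 0.10, adjusted p = 0.00147) and Ifi30, a lysosomal thiol reductase gene of antigen-presenting cells (-1.13 ± 0.30, adjusted p = 0.0393). The mean level of Ifi30 was 5.26 ± 0.067 CPM in the Mdr1+ libraries, against 11.7 ± 1.40 CPM in the Mdr1- libraries (SD, n = 3 each). The Mdr1+ levels rest on 32, 113 and 11 counts in replicates 1, 2 and 3. Their small SD is therefore not a measure of precision. The 9 conventional dendritic cell markers summed to 33.6, 24.6 and 53.3 CPM in Mdr1+ libraries, against 64.0, 79.0 and 93.4 CPM in Mdr1- libraries, and their part in the value of Ifi30 was not tested.

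**Figure D5:**
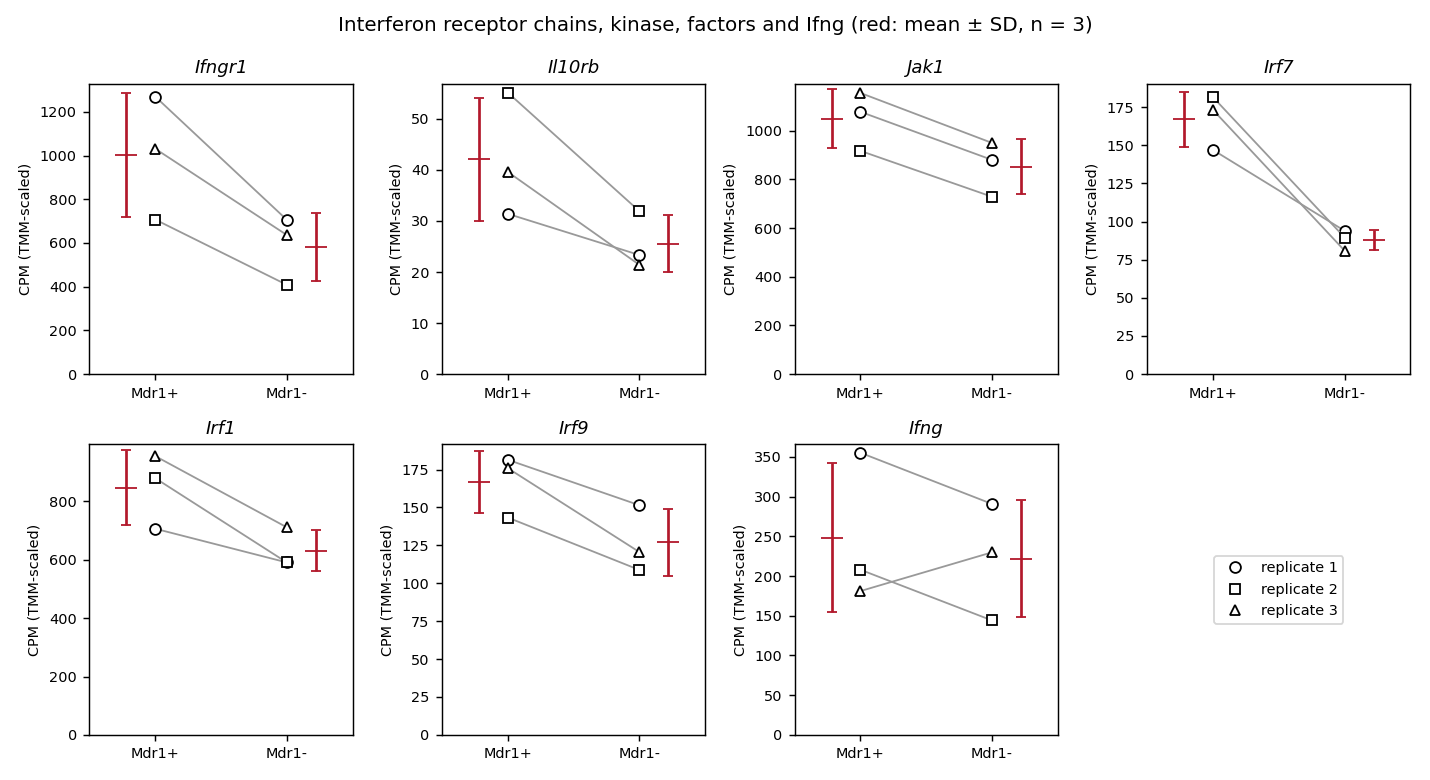
Levels in TMM-scaled CPM (y axis, starting at 0) of Ifngr1, Il10rb, Jak1, Irf7, Irf1, Irf9 and Ifng in Mdr1+ and Mdr1- libraries. Each symbol is 1 library, a grey line connects equal replicate numbers, and red marks give the mean ± SD (n = 3). The first 6 genes are higher in Mdr1+ in each pair, and the pairs of Ifng differ in direction.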

How the data were processed

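The authors deposited raw read counts per gene symbol in 1 table. The submitters' processing notes list TopHat, HTSeq, DESeq2 and build mm9; the sources used here give no versions, annotation or strand setting. HTSeq's classes of unassigned reads, filled for replicates 1 and 2, stayed out of library sizes: 67.0% to 73.2% had no unique position and 13.2% to 19.7% fell in no feature. Replicate 3 counts were assigned to the gene names sorted ignoring case. Their Spearman correlation across genes with replicates 1 and 2 was 0.424 to 0.461 as deposited and 0.926 to 0.962 once re-ordered.

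Tests used edgeR 4.0.16 in R 4.3.3 on the whole table: TMM, filterByExpr by group, and a robust quasi-likelihood test of group alone, Benjamini-Hochberg adjustment over all tested genes and a threshold of 0.05. Fold changes are Mdr1+ over Mdr1- as log2 ± SE. The SE was derived from the test, as the absolute log2 fold change over the square root of its F statistic. The fit of group alone was tested on simulated counts that held no replicate effect. The fit with the replicate block was not tested in this way. DESeq2 1.42.0, other size factors, no filter and left-out libraries were alternatives. Deviations from group means correlated across genes at 0.409, 0.568 and 0.213 between libraries of the same number, all above 0.1, and on this basis the libraries were treated as paired, which the labels do not state. Values with the replicate block therefore stand beside the others. The test between replicate numbers and the block fits that leave out a number were chosen after seeing the data.

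The members and lists were chosen with earlier results of these data known. Described in full are members past 0.05 in either fit and, per role group, those with the highest and lowest fold change. Depth was 2220691 to 20771456 counts per library.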

Additional observations from a re-analysis of the deposited data

How the results depend on the processing

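No member was called under any alternative without the replicate block; with it 7 rose, and with 1 replicate number left out of that fit 3, 1 and 15 (numbers 1, 2 and 3). The members' median log2 fold change, 0.32, was 0.134 to 0.407 with libraries or numbers left out, and 0.084 in the block fit without replicate 2. Over all genes 30 rose and 212 fell; 633 and 716 did with the replicate block, 103 and 381 in DESeq2, and 52 rose with no low-count filter. With replicate 3 as deposited 0 rose and 0 fell. Leaving out libraries or numbers gave 0 to 15 higher and 0 to 196 lower; in block fits without replicates 1, 2 and 3, 436, 259 and 1131 rose and 694, 392 and 1347 fell. Of the pathway genes 1 rose; with the block 15 rose and 2 fell, in DESeq2 2 and 1, with no filter 2 rose, and as deposited 0. Leaving out libraries or numbers gave 0 to 1 higher; in block fits without replicates 1, 2 and 3, 11, 4 and 25 rose and 1, 1 and 5 fell. Of 289 values of the 17 named members under alternatives 35 changed sign, in 5 members. Tap1 was at -0.003 with the block, -0.005 with other size factors, -0.010 in DESeq2 and -0.073 as deposited. Trim25 was at -0.008, -0.011, -0.015 and -0.166 in the same order. With libraries or numbers left out, Tap1 lay between -0.136 and 0.098, Trim25 between -0.155 and 0.110, Usp18 between -0.176 and 0.860, Ifitm3 between -0.438 and 0.164, and Eif2ak2 between -0.457 and 0.10. In block fits without replicates 2 and 3 Tap1 was at -0.031 and -0.147. Trim25 was at -0.018, -0.024 and -0.075 without replicates 1, 2 and 3, and Usp18 at -0.816 and -0.506 without replicates 1 and 2. The cause of these changes was not tested. The depth of Mdr1+ replicate 3 limits members at a few CPM.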
